A study of Mus musculus with 6 samples.

Results

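The constitutive proteasome subunit genes were taken from the deposited RefSeq table by symbol, as every protein coding row whose symbol starts with Psm, followed by a letter from a to g and a number, without the immunoproteasome subunits Psmb8, Psmb9 and Psmb10. This gave 45 of 20275 coding gene symbols, with 1 row per symbol. RNA-seq was performed on primary wildtype MEFs, fibroblasts from littermate mouse embryos of 13.5 days, strain C57BL/6x 129, passaged 4 times. An untreated culture was compared with cultures given 20 ng/ml of TNFα, a cytokine that activates NF-κB, for 1.5, 6 and 24 hr. There was 1 library per time, so no difference could be tested against a spread between replicates, and no p-value is given. H3K4me3, a histone mark of active promoters, was profiled in untreated MEFs with 1 ChIP library and 1 input library.

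The 26S proteasome degrades proteins tagged with ubiquitin. Its 20S core is a barrel of alpha rings around beta rings, and Psmb5, Psmb6 and Psmb7 carry the protease sites inside the beta rings. The 19S cap binds the tagged protein, removes the ubiquitin and unfolds the chain with a ring of ATPases, while the PA28 and PA200 activators (Psme genes) can take the place of the cap, Psmf1 is an inhibitor, and assembly chaperones put the parts together. In cells exposed to inflammatory cytokines, Psmb8, Psmb9 and Psmb10 can replace the protease subunits, and the proteasome also degrades the NF-κB inhibitor IκB.

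Levels are given in the deposited units, which are labelled RPKM (reads scaled to transcript length and to the reads of the library) but carry an unstated factor, and each is the mean of 2 columns (R1 and R2) of the library. Where 4 levels of a gene are listed, they are in the order untreated, 1.5, 6 and 24 hr, and 3 log2 ratios are in the order 1.5, 6 and 24 hr. Genes with a mean level of at least 100 units were compared, which kept 41 of the 45 proteasome genes and 6050 coding genes. Reads in exons were estimated for each column from the smallest steps between the values. The means of R1 and R2 were about 13700000, 17400000, 7200000 and 15300000 in the 4 libraries in this order. All coding genes together had median log2 ratios of 0.44, -0.74 and 0.10 over the untreated culture, so values relative to this median are given as well. The counting error of a proteasome gene's log2 ratio, computed from the reads of the R1 column, had a median of 0.0624 and was at most 0.30. It leaves out other differences between the columns. The ratios from R1 and from R2 differed by up to 0.59, as for Psma1 at 1.5 hr (1.78 and 2.37). All 3 ratios of a gene share the untreated library. The extraction field of the 24 hr label describes ChIP, whereas its other fields describe RNA, and it was used as an RNA library. In the untreated library 9 of 10 fibroblast markers reached 100 units, none of 4 endothelial and none of 4 epithelial markers did, and Epcam was listed at 0. Of 7 leukocyte markers, 6 were in the table and 3 reached 100 units, and their summed level was 3259, 16397, 3185 and 8053 units, most of it from Lyz2. The part of such cells in the results was not tested, and in bulk RNA fewer cells of a type and less RNA per cell cannot be told apart.

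Before treatment the promoters of the proteasome genes carried H3K4me3. A peak lay within 1 kb of an annotated start in all 41 compared genes, against 5481 of 5928 coding genes (92.5%) compared in the same way. With a stricter fold enrichment of at least 40, the counts were 36 of 41 (87.8%) and 3837 of 5928 (64.7%). The peaks were of ordinary size, with a median of 1302 tags at the proteasome genes and 1342 at coding genes, and a median length of 3176 and 3767 bp. The median fold enrichment was 56.2 at the proteasome genes and 50.7 at coding genes. Psmb3, a beta ring subunit, had the most tags (3806, chr11:97558403-97566762 on mm9), and Psmb5 the fewest (489, chr14:55235012-55237400). Psmd2, a scaffold of the 19S base, had the highest fold enrichment (171.95), and Psmb5 the lowest (22.12). Of the 4 genes under 100 units, Psme4 and Psmf1 had a peak at the start. Psma8 and Psmb11, the alpha subunit of germ cells and the beta subunit of the thymic cortex, had none within 5 kb. Of the immunoproteasome genes, Psmb8 and Psmb10 had a peak and Psmb9 had none within 1 kb. Without replicate ChIP libraries, differences between single peaks have no error beyond their tags.

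**Figure D1:**
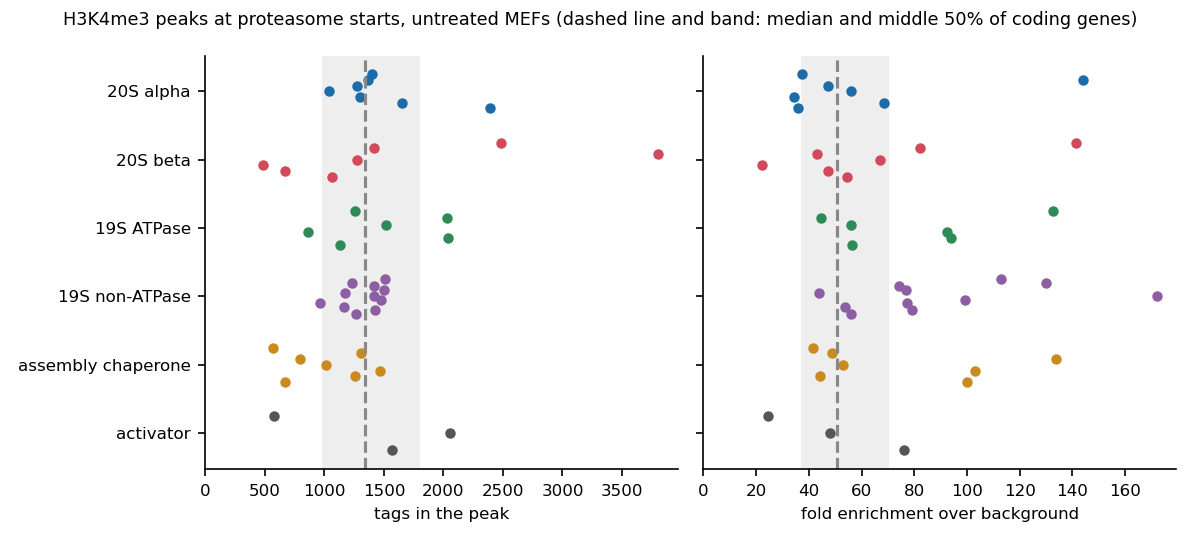
H3K4me3 peaks at the starts of the 41 compared proteasome genes in untreated MEFs, with 1 point per gene by subcomplex. The left axis gives tags per peak and the right axis fold enrichment over the local background; the dashed line and grey band are the median and middle 50% of 5481 coding genes with a peak. Tags spread on both sides of the coding median of 1342.

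The 250 bases before the start are shown for 3 genes with some of the highest log2 ratios (Psma3, Psma5 and Psmd14) and for 2 with some of the lowest (Psmb6 and Psmd4), since their promoters held different sets of the short motifs searched. The sequences are from RefSeq (GRCm38.p6) and each matched 1 place on its chromosome in mm9: Psma3 at chr12:72075360-72075609 (+ strand), Psma5 at chr3:108059594-108059843 (+), Psmd14 at chr2:61549501-61549750 (+), Psmb6 at chr11:70338609-70338858 (+) and Psmd4 at chr3:94846537-94846786 (- strand). Capitals mark a motif on either strand, all of them upstream of the transcript's start, in the H3K4me3 peak of the gene.
Psma3: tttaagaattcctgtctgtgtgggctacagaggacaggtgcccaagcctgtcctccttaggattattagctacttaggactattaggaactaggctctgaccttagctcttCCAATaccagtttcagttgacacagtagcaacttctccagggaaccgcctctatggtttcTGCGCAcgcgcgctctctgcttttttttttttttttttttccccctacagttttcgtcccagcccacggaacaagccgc
Psma5: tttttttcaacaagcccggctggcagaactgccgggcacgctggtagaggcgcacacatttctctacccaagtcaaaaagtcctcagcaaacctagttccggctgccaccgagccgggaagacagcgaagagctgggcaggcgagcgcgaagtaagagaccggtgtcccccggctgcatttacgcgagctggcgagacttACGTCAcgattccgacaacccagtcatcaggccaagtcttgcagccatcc
Psmd14: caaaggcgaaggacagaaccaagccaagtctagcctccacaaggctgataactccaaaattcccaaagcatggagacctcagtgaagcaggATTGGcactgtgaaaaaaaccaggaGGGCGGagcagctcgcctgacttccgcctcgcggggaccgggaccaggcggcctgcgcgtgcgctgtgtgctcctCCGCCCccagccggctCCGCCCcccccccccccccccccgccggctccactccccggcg
Psmb6: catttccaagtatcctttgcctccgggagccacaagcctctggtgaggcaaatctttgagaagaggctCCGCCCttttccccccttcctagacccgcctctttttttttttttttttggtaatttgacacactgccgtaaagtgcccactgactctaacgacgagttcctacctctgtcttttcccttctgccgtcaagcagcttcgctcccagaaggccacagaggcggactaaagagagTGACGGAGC
Psmd4: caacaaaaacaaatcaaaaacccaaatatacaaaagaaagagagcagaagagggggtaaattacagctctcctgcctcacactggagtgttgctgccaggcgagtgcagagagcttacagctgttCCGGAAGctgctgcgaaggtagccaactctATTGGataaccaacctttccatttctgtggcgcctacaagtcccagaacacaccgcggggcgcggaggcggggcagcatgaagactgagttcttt
In the Psma3 promoter the capitals are a CCAAT box and TGCGCA, the core of the nuclear respiratory factor motif. Psma5 has TGACGT, the cyclic AMP response motif, on the reverse strand. Psmd14 has a reverse CCAAT and 3 GC boxes (GGGCGG), of which 1 is on the forward strand. Psmb6 has a reverse GC box and TGANNNNGC, the core of the antioxidant response element, and Psmd4 has the ETS motif CCGGAAG and a reverse CCAAT. A match is a description of the letters only.

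RefSeq entries were found for 37 of the 45 genes. The windows of the motif search ran from 250 bases before to 50 after the start, on both strands, and the 34 compared genes with an entry had 37 of them. CCGGAAG was in 14 of the 37 windows (37.8%), against 19% of 5643 windows of compared coding genes and 8.86% of all 32851 windows. TGANNNNGC was in 21 (56.8%), against 42.5% and 41.3%. The GC box was in 22 (59.5%, against 66.8% and 35.7%), CCAAT in 12 (32.4%, against 37.5% and 37.4%) and TGCGCA in 6 (16.2%, against 15.2% and 7.76%). TGACGT was in 4 (10.8%, against 12.2% and 7.51%), TATAAA in 3 (8.11%, against 6.84% and 13.6%) and the NF-κB motif, which binds the factor that TNFα activates, in 1 (2.7%, against 5.72% and 4.51%). That one window belonged to Psmd12. Within the alpha ring, CCAAT was in 5 of 8 windows and TGCGCA in 4 of 8. Overlaps between motifs were counted under each, and TGACGT can share bases with TGANNNNGC.

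After 1.5 hr of TNFα, 20 of the 41 proteasome genes (48.8%) were higher by 2-fold or more, against a background of 29.8% of coding genes. None was at least 2-fold lower, against 7.97%. The median log2 ratio was 0.98, or 0.54 above the coding median, and 34 of the 41 lay above that median. At 24 hr, 17 (41.5%) were at least 2-fold higher, against 16.8%, and none was lower, against 12.8%. The median was 0.89, or 0.79 above the coding median, and 35 of 41 lay above it. At 6 hr only Psmd7 (2.44%) was at least 2-fold higher, against 1.83%, and 7 genes (17.1%) were at least 2-fold lower, against 31.5%. The median at 6 hr was -0.64 as deposited, but 0.10 above the coding median, with 24 of 41 above it. It was also above 0 (0.25) after scaling to the sum of the values, so the sign of the median at 6 hr depended on the scaling.

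Relative to the median coding gene, 13 proteasome genes (31.7%) were at least 2-fold higher at 1.5 hr against 15.8%, and 1 (Psme1) was lower against 17.4%. At 6 hr, 4 genes (9.76%) were higher against 7.21% and none was lower against 3.26%. At 24 hr, 15 genes (36.6%) were higher against 14.4% and none was lower against 15.2%. The 1.5 hr library held the highest level of 32 of the 41 genes (78.0%), against 59.4% of coding genes, and the level at 6 hr was below those at 1.5 and 24 hr in 38 (92.7%), against 82.8%.

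**Figure D2:**
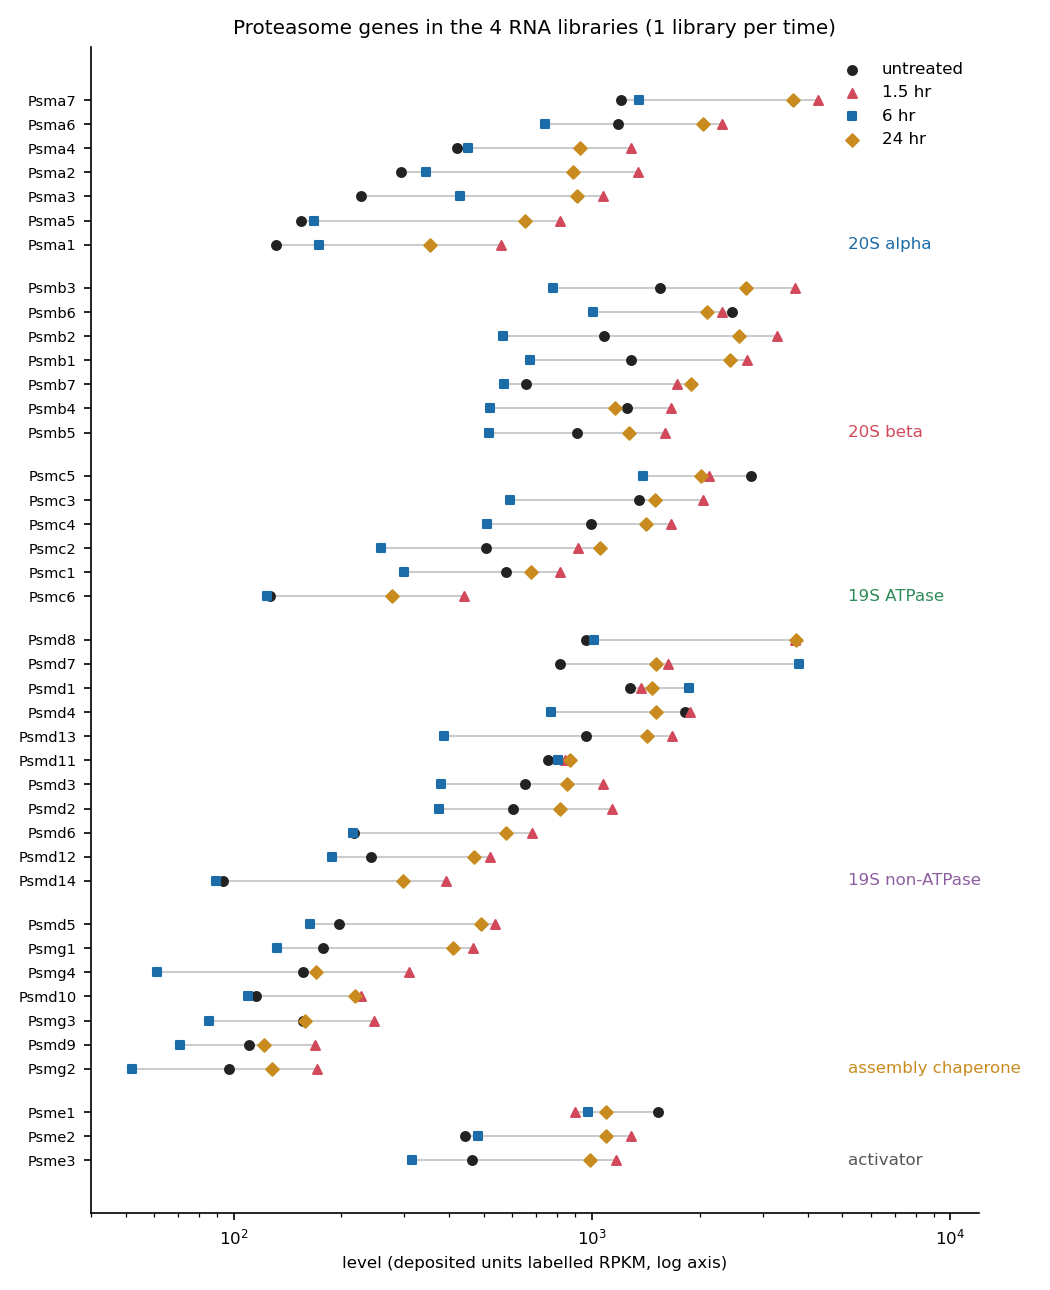
Level of the 41 compared proteasome genes in each of the 4 RNA libraries (deposited units labelled RPKM, log axis), with 1 symbol per library and 1 row per gene, ordered by mean level within each subcomplex. Psma7 reached 4270.2 units at 1.5 hr, and Psmd7 had its highest level, 3782 units, at 6 hr.

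These ratios followed the GC content of the transcripts, in the proteasome genes and in all coding genes alike. Across 5931 coding genes, the Spearman correlation of the log2 ratio with GC content was -0.57, -0.36 and -0.56 in time order, and across the 41 proteasome genes it was -0.52, -0.59 and -0.55. Genes are not independent samples, and all points at a time share the same pair of libraries. The proteasome transcripts had a median GC content of 49.8%, against 53.0% in coding genes, and the alpha ring genes 45%. When each log2 ratio was centred on the median of coding genes of similar GC content, the proteasome medians became 0.42, 0.16 and 0.45. After this step 5 proteasome genes were at least 2-fold higher at 1.5 hr (12.2%, against 638 of 5931 coding genes or 10.8%), 2 at 6 hr (4.88%, against 4.94%) and 6 at 24 hr (14.6%, against 10.5%). None was at least 2-fold lower at any of the 3 times, against 10.5%, 2.68% and 8.99% of coding genes. The counts of 2-fold higher genes were thus near the background of coding genes of like GC content. The 5 at 1.5 hr were Psma5, Psma7, Psmd3, Psmd8 and Psme2. The cause of the relation with GC content was not tested.

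**Figure D3:**
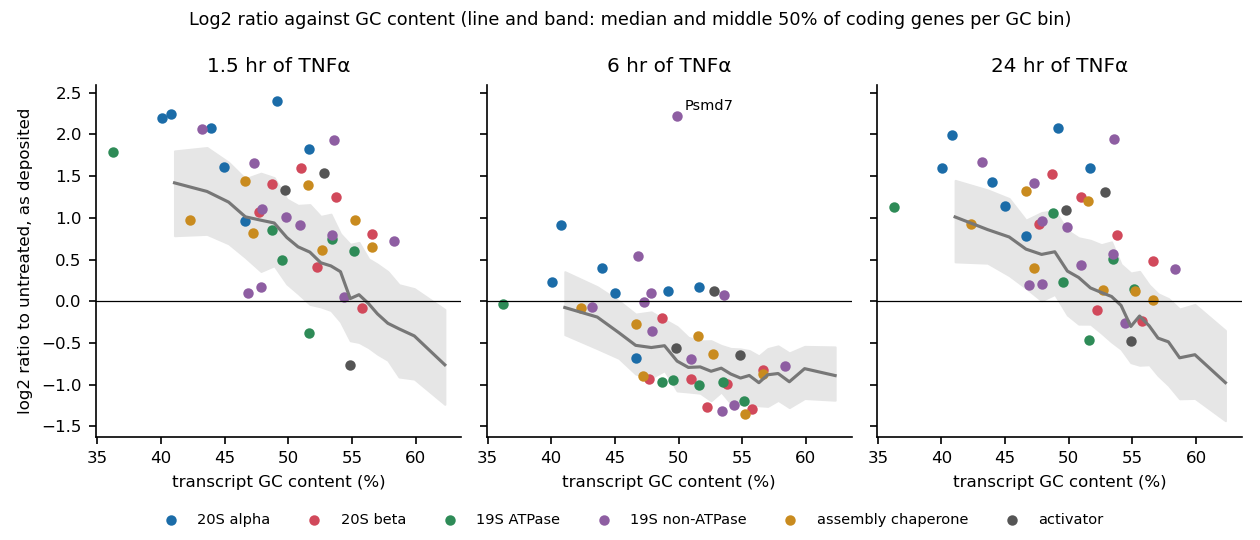
Log2 ratio to the untreated library as deposited (y axis) against transcript GC content in percent (x axis) at each time, with 1 point per proteasome gene coloured by subcomplex. The grey line and band are the median and middle 50% of coding genes in 20 bins of GC content; the line slopes down at each time, and Psmd7 at 6 hr stands far above it, at 2.22.

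Of the 41 transcripts, 5 share most of their sequence with other places in the genome, and reads from such copies could count with the gene. The share of 32-base windows of the transcript also found elsewhere in mm9 was 78.4% for Psmb3, 77.5% for Psmb5, 66.6% for Psma5, 65.8% for Psme2 and 60.5% for Psma4, and the values of these genes are uncertain in that respect. It was 0 for Psma1, Psma7, Psmc5 and Psmd7. In the rest of the alpha ring it was 39.2% for Psma3, 13.6% for Psma2 and 0.30% for Psma6. In the 26 compared genes with a share under 5%, the median log2 ratios were 0.97, -0.66 and 0.84. At 1.5 hr the 2-fold threshold was reached by 11 (42.3%), against 29.8% of coding genes and 48.8% of all 41 genes. These values are as deposited and were not centred by GC content.

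The alpha ring genes, whose products form the gate of the core, had the highest median of the subcomplexes at all 3 times as deposited. Their median log2 ratios were 2.08, 0.17 and 1.59, and 6 of 7 were at least 2-fold higher at 1.5 and at 24 hr, against 29.8% and 16.8% of coding genes. Psma5 had levels of 154, 817, 168 and 652 units. The 1.5 and 24 hr libraries were high and the other two low, with log2 ratios of 2.41, 0.12 and 2.08. Psma3 had 227, 1074, 428 and 908 units. Its level at 6 hr lay between the untreated and the later values, and its log2 ratios were 2.24, 0.91 and 2.0. Psma2 had 293, 1342, 345 and 886 units (log2 ratios of 2.19, 0.23 and 1.60). Psma1 had 132, 557, 173 and 354 units (2.08, 0.40 and 1.43). Both were lowest in the untreated library, as were 6 of the 7 alpha genes, against 10.4% of coding genes. Psma7 was the most abundant, with 1203, 4270.2, 1352 and 3629.6 units and log2 ratios of 1.83, 0.17 and 1.59. Psma4 followed the same order of libraries, and Psma6 had the smallest ratios of the ring at 1.5 hr (0.96) and 24 hr (0.79). Centred on genes of like GC content, the alpha medians were 0.77, 0.59 and 0.59, and 2 of 7 (Psma5 and Psma7) stayed at least 2-fold higher at 1.5 hr, against 10.8% of coding genes. After this centring the beta ring (0.78) and the activators (0.74) had higher medians at 24 hr. The median lay above 0 in every scaling tried.

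The beta ring genes had even levels, from 655 to 2453 units in the untreated library, a range of 3.74-fold against 9.14-fold in the alpha ring. Their median log2 ratios were 1.08, -0.93 and 0.80, and 4 of 7 were at least 2-fold higher at 1.5 hr, against 29.8% of coding genes. Relative to the coding median the value at 6 hr was -0.20. Centred on genes of like GC content, the beta medians were 0.46, -0.14 and 0.78. None of the 7 was then at least 2-fold higher at 1.5 hr, against 10.8% of coding genes. The 3 protease subunits differed from each other. Psmb5, the chymotrypsin-like subunit, had 910.3, 1597, 516 and 1273 units, with log2 ratios of 0.81, -0.82 and 0.48. Psmb6, the caspase-like subunit, had 2453, 2311, 1005 and 2089 units, with log2 ratios of -0.09, -1.29 and -0.23. Its ratio at 1.5 hr was -0.29 in the R1 column and 0.10 in the R2 column, so that no direction is given for that time. Psmb7, the trypsin-like subunit, had 655, 1733, 569 and 1893 units, and was highest at 24 hr (1.40, -0.20 and 1.53). Centred by GC content the ratios at 24 hr were 0.78 for Psmb5, -0.05 for Psmb6 and 0.94 for Psmb7. Of the structural subunits, Psmb3 was the most abundant by the mean of both columns, with 1552, 3689.5, 778 and 2697 units (1.25, -1.0 and 0.80). Its columns differed, with 1011 units in R1 and 2094 in R2 of the untreated library. In that R1 column it was below Psmb1 (1327) and Psmb2 (1189). Psmb4 had 1252, 1662, 519 and 1159.9 units (0.41, -1.27 and -0.11), and its ratio at 1.5 hr was below the coding median by 0.03. Psmb1 and Psmb2 had log2 ratios of 1.08 and 1.60 at 1.5 hr and of 0.92 and 1.25 at 24 hr.

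The inducible counterparts of the protease subunits had lower levels in the untreated library. Psmb8, which replaces Psmb5, had 191, 398, 327 and 608 units, and was higher in each treated library (log2 ratios of 1.06, 0.78 and 1.67). Psmb9, which replaces Psmb6, stayed under the level minimum, with 9.95, 39.5, 10.9 and 39.7 units. Psmb10, which replaces Psmb7, had 408, 564, 619 and 555 units (0.47, 0.60 and 0.45), with no low value at 6 hr. As deposited, Psmb8 thus had a log2 ratio of 0.78 at 6 hr where Psmb5 had -0.82. Relative to the coding median these were 1.51 and -0.08, so Psmb5 was near the median coding gene. Of the Psmb5 windows, 77.5% lie elsewhere in the genome.

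The 19S ATPase genes, which encode the unfolding motor, had the smallest ratios, with medians of 0.67, -0.97 and 0.37. Relative to the coding median these were 0.23, -0.23 and 0.27, and the value at 6 hr was below 0 in every scaling tried. Psmc5 was the most abundant ATPase, with 2774, 2122, 1385 and 2012 units. It was highest without TNFα, with log2 ratios of -0.39, -1.0 and -0.46, and none of its transcript windows lay elsewhere in the genome. Psmc6 had the lowest level, with 127, 439, 124 and 278 units, and the only 2-fold higher ratio of the ATPases at 1.5 hr (1.79). Its transcript had the lowest GC content of the proteasome genes, 36.2%, and its centred ratio was 0.37. Psmc1, Psmc2, Psmc3 and Psmc4 had ratios between 0.50 and 0.86 at 1.5 hr. At 24 hr, Psmc2 reached 1.06.

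The 19S non-ATPase genes had log2 ratios from 0.05 to 2.06 at 1.5 hr and from -1.32 to 2.22 at 6 hr, the widest range of the subcomplexes at 6 hr. Psmd7, a lid subunit that pairs with the deubiquitinase Psmd14, was the exception at 6 hr. It had 813, 1633, 3782 and 1510.3 units, so that it was highest in the library in which most genes were lowest. Its log2 ratio at 6 hr was 2.22 as deposited, 2.27 in the R1 column and 2.16 in the R2 column, with a counting error of 0.04. This ranked 32 among the 6050 coding genes. Relative to the coding median it was 2.96, and centred by GC content 2.94. No other annotated gene overlaps Psmd7 (chr8:110104281-110112382 on mm9, - strand), and none of its transcript windows lies elsewhere in the genome. At 1.5 and 24 hr its ratios were 1.01 and 0.89. The value rests on 1 library.

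Psmd1, a scaffold of the base, was the next highest at 6 hr among the non-ATPase genes, with 1280.3, 1375, 1871 and 1469 units. Its log2 ratios were 0.10, 0.55 and 0.20, and relative to the coding median -0.34, 1.29 and 0.10. Other annotated genes overlap Psmd1. Psmd11, a lid subunit, had 752, 844, 803 and 866 units, a narrow range, with log2 ratios of 0.17, 0.09 and 0.20. Psmd8, another lid subunit, was the most abundant of this class by its mean, with 964, 3697, 1015 and 3724 units, and was high at 1.5 and 24 hr (log2 ratios of 1.94, 0.07 and 1.95). Its ratio at 24 hr was below those of Psma5 and Psma3 as deposited, and was the highest of the 41 genes, at 1.89, after centring by GC content. Psmd14, the lid deubiquitinase, had 93.6, 391, 89.4 and 298 units, the lowest untreated level of the 41 genes, with log2 ratios of 2.06, -0.07 and 1.67. Psmd13, of the lid, had 962, 1673, 386 and 1422 units, and its ratio of -1.32 at 6 hr was the lowest of the class. Psmd4, a ubiquitin receptor, had 1819, 1882.5, 767 and 1512 units (0.05, -1.25 and -0.27). Psmd2, Psmd3, Psmd6 and Psmd12 had ratios of 0.72 to 1.65 at 1.5 hr.

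The assembly chaperones were the least abundant group, with a median untreated level of 156 units against 813 for the 31 genes of the 26S subunits. Their median log2 ratios were 0.98, -0.64 and 0.40. Psmd5, a chaperone of the base, was the most abundant, with 197, 537, 163 and 491 units (1.45, -0.27 and 1.32). Psmg4, a chaperone of the alpha ring, had 156, 308, 61.1 and 169.6 units, and its ratio at 6 hr was the lowest of the 41 genes, at -1.35, with the largest counting error (0.30). Psmg1 had ratios of 1.39 at 1.5 hr and 1.20 at 24 hr, and Psmg2, Psmg3, Psmd9 and Psmd10 had 0.61 to 0.98 at 1.5 hr.

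The activators parted in the treated libraries. Psme1 and Psme2 encode the paired subunits of PA28, which interferon induces. Psme1 had 1529.7, 897, 974 and 1097 units, and was highest without TNFα, with log2 ratios of -0.77, -0.65 and -0.48. Psme2 had 443, 1287, 482 and 1098 units, and was high at 1.5 and 24 hr, with ratios of 1.54, 0.12 and 1.31. In the untreated library the level of Psme1 was thus above that of Psme2, and at 24 hr both means were near 1097 units. The order at 24 hr differed by column, with 1157 and 907 units in R1 and 1036 and 1289 in R2. The Psme2 ratio at 1.5 hr was 1.24 in R1 and 1.79 in R2. Psme1 had the lowest ratio of the 41 genes at 1.5 and 24 hr as deposited, with Psmc5 close to it at 24 hr (-0.46). Centred by GC content, Psmc5 was the lowest at both times (-0.98 and -0.62), and Psme1 had -0.80 and -0.18. The span of Psme1 overlaps the gene Fam158a, while 65.8% of the Psme2 windows lie elsewhere in the genome. Psme3, the nuclear activator, had 463, 1171, 314 and 991 units (1.34, -0.56 and 1.1). Psme4 (PA200) had a mean just under the minimum, with 53.2, 190.0, 43.0 and 112 units, and the inhibitor Psmf1 had 90.1, 159, 35.0 and 102 units. Psma8 had 1.11, 3.20, 0 and 1.65 units and Psmb11 1.23, 0, 1.21 and 0 units, so both were near 0 in every library.

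**Figure D4:**
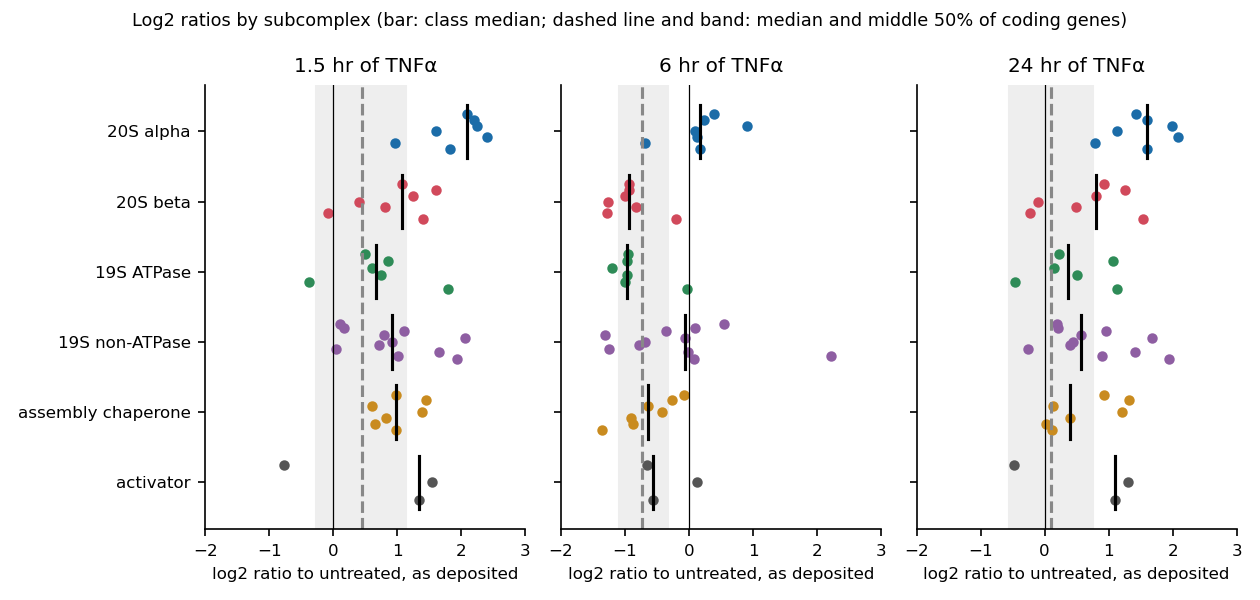
Log2 ratio to the untreated library as deposited (x axis) for the 41 proteasome genes by subcomplex at 1.5, 6 and 24 hr, with 1 point per gene and a bar for the class median. The dashed line and grey band are the median and middle 50% of 6050 coding genes; the alpha ring median of 2.08 at 1.5 hr lies right of the band, and at 6 hr, where the dashed line itself is at -0.74, relative values turn the sign of the overall median.

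The proteasome medians were set beside those of 3 other stable complexes. The COP9 signalosome and the translation factor eIF3 share lid-type subunits with the 19S cap, and the CCT chaperonin folds actin and tubulin. The median log2 ratios relative to the coding median were 0.79, 0.20 and 0.80 for the 9 COP9 genes at 1.5, 6 and 24 hr, 0.66, 0.28 and 0.52 for the 13 eIF3 genes and 0.84, 0.12 and 0.64 for the 8 CCT genes, against 0.54, 0.10 and 0.79 for the proteasome. Centred by GC content, they were 0.51, 0.08 and 0.48 for COP9, -0.02, 0.23 and 0.01 for eIF3 and 0.48, 0.01 and 0.36 for CCT. At least 2-fold higher at 1.5 hr as deposited were 7 of 9, 7 of 13 and 6 of 8 genes, against 29.8% of coding genes. No difference between the complexes was tested. Relative to the coding median, the proteasome median was the lowest of the 4 at 1.5 and 6 hr and lay within the range of the others at 24 hr. This order did not hold after centring by GC content, where the proteasome medians were 0.42, 0.16 and 0.45. The centred proteasome median was above that of eIF3 at 1.5 hr and above those of COP9 and CCT at 6 hr. The alpha ring median relative to the coding genes (1.64 at 1.5 hr) was higher than those of the 3 complexes.

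**Figure D5:**
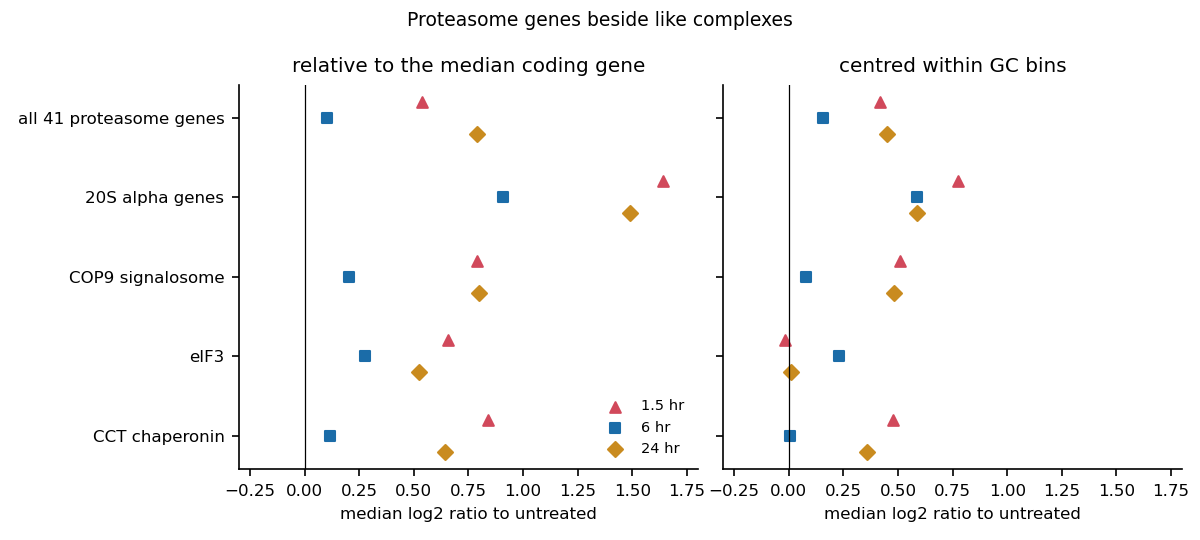
Median log2 ratio to the untreated library (x axis) of the 41 proteasome genes, the 7 alpha ring genes, COP9, eIF3 and CCT at 1.5, 6 and 24 hr, relative to the median coding gene (left) and centred within bins of GC content (right). The alpha ring medians of 1.64 and 1.49 at 1.5 and 24 hr are lower on the right, at 0.77 and 0.59.

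Of 29 other genes of the ubiquitin and proteasome pathway, 28 were in the table and 22 were compared. At 1.5 hr 11 were at least 2-fold higher and none lower, at 6 hr none was higher and 5 lower, and at 24 hr 7 were higher and none lower, as deposited. The backgrounds for higher and lower were 29.8% and 7.97% of coding genes at 1.5 hr, 1.83% and 31.5% at 6 hr, and 16.8% and 12.8% at 24 hr. Nfe2l1 and Nfe2l2 encode transcription factors that act on proteasome genes. Nfe2l1 had 1401, 2560.0, 1227 and 1842 units (log2 ratios of 0.87, -0.19 and 0.39). Nfe2l2 was lower in level and had 86.0, 415, 104 and 221 units (2.27, 0.27 and 1.37). Both were highest at 1.5 hr, as were 59.4% of coding genes. Relative to the coding median, the ratios at 1.5 hr were 0.43 for Nfe2l1 and 1.83 for Nfe2l2. A link to the proteasome genes was not tested. Of the ubiquitin genes, Ubb had 7862, 32005, 6268 and 23755 units (2.03, -0.33 and 1.60), with the 1.5 and 24 hr libraries high. Sqstm1, a receptor for tagged proteins, had 1674, 7808, 1608 and 3567 units, highest at 1.5 hr. Pomp, the chaperone that matures the beta ring, had ratios of 0.31, -0.81 and 0.12.

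The 45 genes lie on 16 chromosomes, with 8 (17.8%) on chromosome 11 and 6 (13.3%) each on chromosomes 2 and 14. The shares of compared coding genes were 9.38%, 7.73% and 2.97% on chromosomes 11, 2 and 14. A coding gene on the opposite strand started within 1 kb of 9 of the 41 compared genes (22.0%), against 16.2% of coding genes. Psma2, for example, shares its start region with Mrpl32.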

How the data were processed

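Poly-A RNA was sequenced by the authors with paired-end directional reads, which they mapped to mm9 with TopHat and turned into RPKM values per RefSeq transcript with a script of their own. The deposited RPKM values carry a factor that is not stated in the sources used here. R1 and R2 of a library held equal read numbers (within 2%) for 36.8% to 47.4% of genes with a mean under 2 units and values above 0 in both columns, against 10.1% to 15.3% between libraries, so they were averaged and not used as replicates. ChIP reads were mapped by the authors with Bowtie, and MACS peaks were called for 1 library against input. The deposited list of 11157 peaks gives tag counts, a score from the log of the p, a fold enrichment ratio, an FDR in percent, and a signal of tags per base.

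Log2 ratios were taken to the untreated library with no pseudocount, for genes with a mean of at least 100 units. The row with the highest mean was used for symbols with several rows. GC content, starts and positions came from NCBIM37 and GENCODE, with GC content for 98.0% of compared genes, in 20 bins. A peak counted within 1 kb of a start. A proteasome gene was described in full if it was among the 4 highest or 4 lowest ratios at a time, the most abundant of its class, a protease subunit, under the minimum, or past 2-fold against the median gene. Members, gene lists and tests were chosen with earlier results of these data known, and the comparison of genes with few repeated windows after seeing these values. The steps were tested on simulated data. Python 3.11.15, numpy 2.4.6, pandas 2.3.3, scipy 1.17.1 and matplotlib 3.10.9 were used.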

Additional observations from a re-analysis of the deposited data

Results flagged for a closer look

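The median log2 ratio of the proteasome genes was 0.98 at 1.5 hr and -0.64 at 6 hr as deposited, so the values of 1 library lay above the untreated library and those of the other below it. No test of this difference could be made with 1 library per time, so the difference was not tested, and relative to the median coding gene both values lay above 0 (0.54 and 0.10).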

How the results depend on the processing

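The values below are for the medians and counts of the 41 proteasome genes, and no value changed sign apart from the 6 hr median, which was above 0 under each other scaling and centring. Across these results and the share of starts with a peak, 119 values under alternatives stayed near the reported one and 77 moved. With 1 library per time the yardstick for a median was how far R1 or R2 alone stood from the reported value, which does not measure replicate error.

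With a pseudocount of 10 units the medians of the log2 ratios at 6 and 24 hr were -0.57 and 0.87 (the latter 0.77 above the coding median). With a pseudocount of 100 the medians were 0.86, -0.37 and 0.74 at 1.5, 6 and 24 hr, the last 0.66 above the coding median. At 24 hr 10 genes were at least 2-fold higher (24.4%, against 7.45% of coding genes). Without a minimum level 1 of 45 genes (Psmb11) was at least 2-fold lower at 1.5 hr (2.22%, against 17.0% of coding genes). At 24 hr 1 was lower as well (2.22%, against 21.6%). The medians stood 0.63 and 0.16 above the coding median at 1.5 and 6 hr, and the median at 24 hr was 0.80. With a minimum of 500 units 28 proteasome genes and 1775 coding genes entered. Of the 28, 12 were at least 2-fold higher at 1.5 hr (42.9%, against 28.2% of coding genes). The count was 10 at 24 hr (35.7%, against 17.3%). At these 2 times 22 and 23 lay above the coding median. The medians were 0.88, -0.73 and 0.67, the last 0.65 above the coding median. The mean over all rows of a symbol gave 0.88 at 24 hr.

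Percentages in brackets here give the share of the proteasome genes and then that of coding genes. Scaling to the sum gave medians of 0.72, 0.25 and 0.94, with 1 gene at least 2-fold lower at 1.5 hr (2.44%, against 13.3%). At 6 hr 8 were higher (19.5%, against 9.55%) and 0 lower (against 1.64%). The median of ratios gave 0.54, 0.10 and 0.79, with 13 higher (31.7%, against 15.8%) and 1 lower (2.44%, against 17.4%) at 1.5 hr. At 6 hr 4 were higher (9.76%, against 7.21%) and 0 lower (against 3.26%). The trimmed mean of log ratios gave 0.55, 0.10 and 0.80. It had 13 higher (31.7%, against 16.2%) and 1 lower (2.44%, against 17.0%) at 1.5 hr. At 6 hr 4 were higher (9.76%, against 7.12%) and 0 lower (against 3.27%). Centring by GC content gave 0.42, 0.16 and 0.45. At least 2-fold higher were 5 (12.2%, against 10.8%), 2 (4.88%, against 4.94%) and 6 (14.6%, against 10.5%) in time order, and 0 were lower at 6 hr (against 2.68%). Centring by transcript length gave 0.50, 0.14 and 0.59, with 11 higher (26.8%, against 15.9%) and 1 lower (2.44%, against 17.3%) at 1.5 hr. At 6 hr 6 were higher (14.6%, against 7.40%) and 0 lower (against 2.78%). Centring by level gave 0.58, 0.16 and 0.81, with 1 lower at 1.5 hr (2.44%, against 17.3%). At 6 hr 5 were higher (12.2%, against 7.22%) and 0 lower (against 2.89%). A 1.5-fold threshold gave 33 higher and 1 lower at 1.5 hr and 2 higher and 21 lower at 6 hr. A 3-fold threshold gave 11 higher at 1.5 hr, 0 lower at 6 hr and 6 higher at 24 hr. The shares of coding genes past these thresholds were not computed, so these counts have no background beside them. In genes with few repeated windows, an alternative chosen after seeing the data, the medians at 6 and 24 hr were -0.66 and 0.84. The causes were not tested.

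No paired analysis was possible because each time has 1 library and the labels give no replicate numbers. For the same reason no library was left out. The estimated reads in exons of the 6 hr library, 0.526 times the untreated estimate, limit the low genes most. This is not the ratio of all sequenced reads.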
